A study of Mus musculus with 12 samples.

Results

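The transcripts of 9 genes of the T cell receptor (TCR) complex and of the first steps of its signalling were followed in mouse CD4 T blast cells (TB) with and without IL-2. The genes were chosen by name, namely Cd3d, Cd3e, Cd3g and Cd247 for the CD3 chains, Cd4 for the coreceptor, Lck and Zap70 for the kinases, and Lat and Lcp2 for the adaptors. They are 9 of 24439 gene names listed in each library, and all 9 passed the filter on low values. RNA-Seq was done on 12 libraries, 3 in each of 4 groups. CD4 T cells were taken with antibody-coated beads from the spleens of C42 mice, which carry a fragment of human DNA with the IL3 and CSF2 genes on a C57BL/6 background, and were turned into blasts with 2 µg/ml concanavalin A (ConA) for 40 h. All cultures were then expanded in 50 U/ml IL-2 for about 2 days, and the last 16 h were spent with IL-2 (TB IL-2) or without it (TB IL-2nil). In the other two groups, TB+ IL-2 and TB+ IL-2nil, cells cultured in these ways also received 20 ng/ml PMA and 2 µM of the calcium ionophore A23187 (PMA/I) for 2 h. ConA and IL-2 were thus shared by all groups, cells were purified on CD4 itself, and the labels do not say whether replicates came from separate mice, so P-values measure the spread between these libraries only.

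The TCR has no signalling domain of its own. Its alpha and beta chains assemble with the CD3 delta, epsilon, gamma and zeta chains, whose cytoplasmic tails carry ITAMs, the tyrosine motifs that LCK phosphorylates while CD4 holds the kinase close to the receptor. ZAP-70 then binds the phosphorylated tails and phosphorylates LAT and SLP-76, the product of Lcp2, and these adaptors assemble the complex that activates PLC-gamma 1, Ras and calcium entry. PMA and a calcium ionophore act below all 9 of these proteins, PMA on protein kinase C and RasGRP and the ionophore on calcium, so that this stimulus needs no receptor.

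The libraries labelled TB IL-2nil replicate 3 and TB+ IL-2 replicate 3 go against their labels. Il2, which T cells switch on when activated, measured 1370 FPKM in the former and 0.29 FPKM in the latter, while the other libraries lay between 0 and 1.18 FPKM without PMA/I and between 1100 and 2370 FPKM after it. The study's own list of differentially expressed genes holds the values of each of these libraries under the label of the other. Both were therefore placed in each other's group, and TB IL-2nil replicate 3 and TB+ IL-2 replicate 3 denote the placed libraries below; values as labelled and without both libraries are given for the members that passed the test and, for other genes, as counts or where the call is lost. Relative depth spanned 3.05-fold, with TB IL-2nil replicate 2 the shallowest library. The CD4 T cell list was high in every library, with sums of its 8 genes from 2190 to 3380 TPM, and Cd3e was never below 275 TPM. The 2 CD8 genes summed to at most 31.9 TPM and the 5 myeloid genes to at most 4.88 TPM, and of the 3 NK cell genes Ncr1 was listed at 0 in every library. The 4 B cell genes moved with IL-2, as their sum was 23.2 to 29.6 TPM in TB IL-2nil, 5.94 to 10.4 TPM in TB IL-2, 5.49 to 12.7 TPM in TB+ IL-2nil and 2.36 to 3.31 TPM in TB+ IL-2. Their part in the results below was not tested.

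The 250 bases before the transcription start are shown for 5 of the genes, as these carry the contrasts described below: Zap70, Lat and Lcp2, whose transcripts rose after PMA/I, and Cd3d and Cd3g, a pair of neighbours that are transcribed away from each other. The sequences are from RefSeq, whose table is built on GRCm38.p6 and lists 8 of the 9 genes. It lists 3 windows for Zap70, of which the one nearest to the start of the gene model is shown. Each sequence was found once in the mm9 genome that the study used, and coordinates are those of mm9. They are written 5′ to 3′ on the strand of the gene. Capitals mark matches on either strand to TGANTCA (AP-1), TGGAAA (NFAT), TTCNNNGAA (STAT), TGTGGT (RUNX) or CCGGAA (ETS), where N is any base.
Zap70, chr1:36818393-36818642, plus strand: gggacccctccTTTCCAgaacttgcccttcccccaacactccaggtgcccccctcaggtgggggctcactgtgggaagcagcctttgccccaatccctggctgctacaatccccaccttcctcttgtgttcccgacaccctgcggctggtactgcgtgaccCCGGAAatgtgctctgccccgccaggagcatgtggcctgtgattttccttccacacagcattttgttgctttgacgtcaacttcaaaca
Lat, chr7:133513083-133513332, minus strand: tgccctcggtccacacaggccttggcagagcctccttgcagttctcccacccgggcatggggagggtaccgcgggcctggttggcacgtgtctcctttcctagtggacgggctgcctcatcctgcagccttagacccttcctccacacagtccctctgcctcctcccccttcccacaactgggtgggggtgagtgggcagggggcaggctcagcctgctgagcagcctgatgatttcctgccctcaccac
Lcp2, chr11:33946678-33946927, plus strand: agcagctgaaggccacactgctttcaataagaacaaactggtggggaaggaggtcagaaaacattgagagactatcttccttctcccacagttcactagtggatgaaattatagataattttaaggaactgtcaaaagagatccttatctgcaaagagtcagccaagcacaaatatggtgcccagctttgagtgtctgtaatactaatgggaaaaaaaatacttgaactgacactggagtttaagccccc
Cd3d, chr9:44789619-44789868, plus strand: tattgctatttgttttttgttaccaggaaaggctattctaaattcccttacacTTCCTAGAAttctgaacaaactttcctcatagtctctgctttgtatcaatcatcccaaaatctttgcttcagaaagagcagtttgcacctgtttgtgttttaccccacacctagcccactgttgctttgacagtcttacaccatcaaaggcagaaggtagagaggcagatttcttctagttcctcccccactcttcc
Cd3g, chr9:44788515-44788764, minus strand: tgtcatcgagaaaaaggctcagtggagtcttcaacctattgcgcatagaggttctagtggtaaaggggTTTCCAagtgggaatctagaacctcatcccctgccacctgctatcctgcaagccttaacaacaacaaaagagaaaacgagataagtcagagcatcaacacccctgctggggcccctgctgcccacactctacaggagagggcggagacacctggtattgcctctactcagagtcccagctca
The Zap70 window shown holds 1 match to the NFAT letters and 1 to the ETS letters (the other two hold 1 match to the RUNX letters and none), the Cd3g window 1 match to the NFAT letters, and the Cd3d window 1 match to the STAT letters. The Lat and Lcp2 windows hold none of the 5, and none of the windows shown holds the AP-1 letters. Among 32851 RefSeq promoter windows of this length, 6.75% hold the AP-1 letters, 18.6% NFAT, 7.02% STAT, 14% RUNX and 12% ETS, so such matches are common and describe letters rather than bound sites.

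Gene positions were taken from GENCODE M1 models on mm9, and their ends can differ from those of the RefSeq models behind the deposited values. Cd3g (chromosome 9, 44777655 to 44788514, minus strand), Cd3d (44789876 to 44795135, plus strand) and Cd3e (44806826 to 44817673, minus strand) form the CD3 cluster, in which the starts of Cd3d and Cd3g lie 1362 bases apart and those of Cd3d and Cd3e 27797 bases apart. Cd247 lies apart from them on chromosome 1 (167718812 to 167807407, plus strand), on the same chromosome as Zap70 (36818695 to 36839663, plus strand). Cd4 is on chromosome 6 (124814710 to 124838239, minus strand), Lck on chromosome 4 (129225588 to 129250885, minus strand), Lat on chromosome 7 (133507346 to 133513057, minus strand) and Lcp2 on chromosome 11 (33946920 to 33992295, plus strand).

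Levels are given as TPM, a length-corrected share of transcripts that was calculated from the deposited FPKM values and scaled to a common upper quartile. In TB IL-2 the highest means were those of Cd3e and Lat, with Cd3e at 370 ± 19.4 TPM and Lat at 364 ± 45.7 TPM (SD, n = 3), and Lcp2 had the lowest at 107 ± 10.3 TPM (SD, n = 3). Neither end of this order is resolved. Lat overlapped with Cd3g, and Lcp2, at up to 119 TPM, with Zap70, from 116 TPM. The order differed in the groups with PMA/I. In TB+ IL-2, Lat had the highest mean at 583 ± 119 TPM, followed by Lcp2 at 485 ± 50.6 TPM, and their ranges overlapped. Zap70 was next at 339 ± 53.6 TPM, and Cd4 was lowest at 115 ± 15 TPM (SD, n = 3). In TB+ IL-2nil, Lcp2 led at 795 ± 127 TPM, followed by Lat at 769 ± 243 TPM and Zap70 at 653 ± 190 TPM (SD, n = 3), and Cd4 was lowest at 206 ± 44.8 TPM (SD, n = 3). The ranges of Lcp2, Lat and Zap70 overlapped from each gene to the next there, so their order is not resolved, whereas Cd4 lay below every other gene in the group. Within TB IL-2nil, the ranges overlapped from each gene to the next down to Cd4, and a gap separated these 7 genes from Zap70 at 136 ± 4.55 TPM and Lcp2 at 131 ± 10.6 TPM (SD, n = 3).

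**Figure D1:**
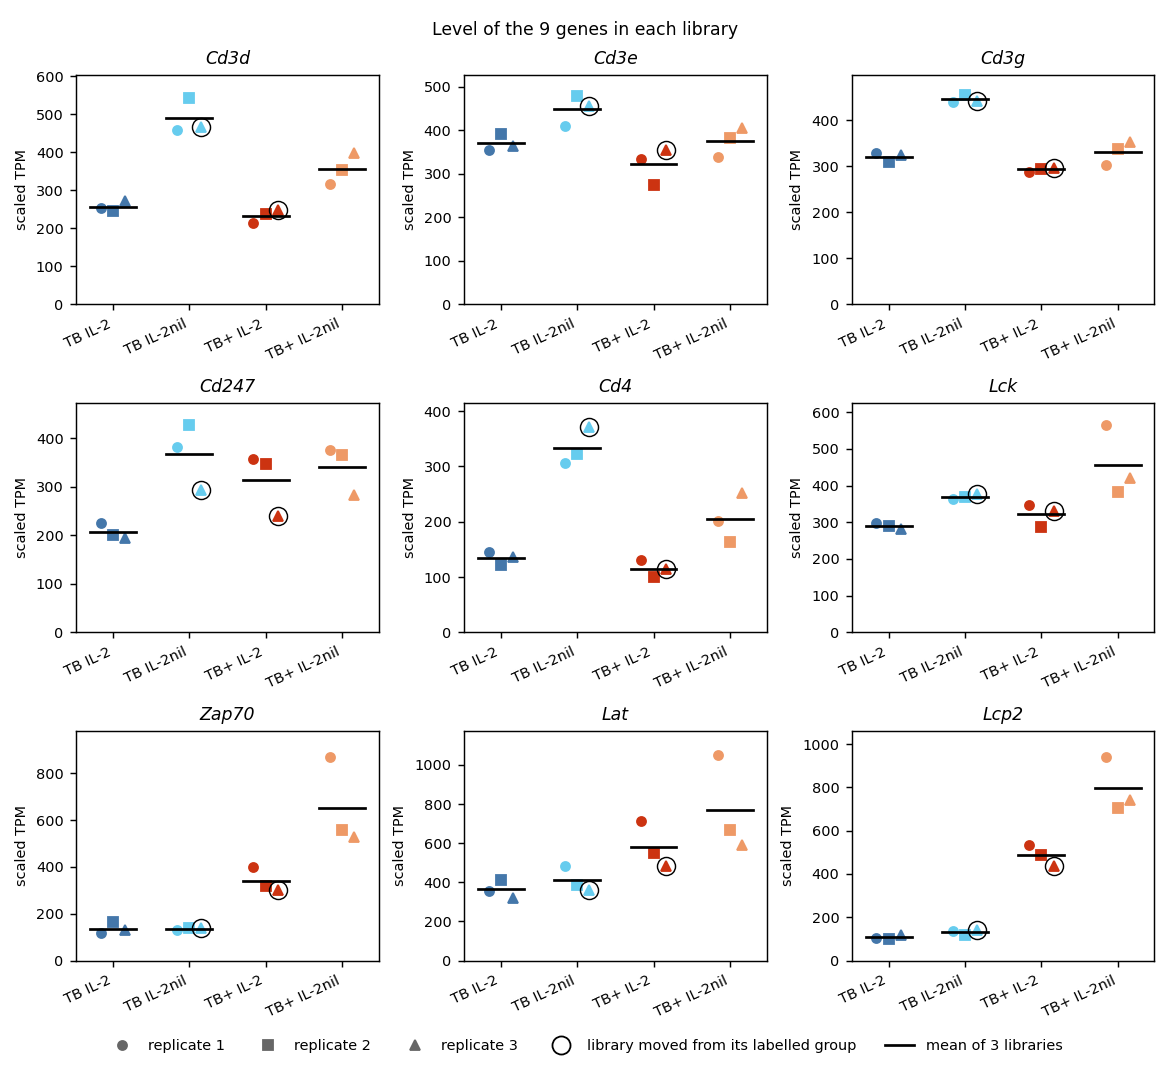
Scaled TPM (linear axis from 0) of the 9 genes in each of the 12 libraries, by group, with the mean of 3 libraries as a bar and the 2 libraries that were moved from their labelled groups circled. Cd4 and Cd3d stand highest in TB IL-2nil, Zap70, Lat and Lcp2 stand highest in TB+ IL-2nil, and Cd3e passed the test in none of the comparisons.

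Among the CD3 chains, Cd3d, the delta chain, had the largest IL-2 differences in the placed groups. It was at 252, 246 and 272 TPM in replicates 1 to 3 of TB IL-2, at 459, 543 and 467 TPM in TB IL-2nil, at 213, 237 and 249 TPM in TB+ IL-2 and at 316, 354 and 399 TPM in TB+ IL-2nil. Every library without IL-2 was thus higher than every library with it, before and after PMA/I. With IL-2, Cd3d was 1.9-fold lower before PMA/I (log2 difference -0.93, SE 0.14, adjusted P = 0.000776 in the limma fit, by the Benjamini-Hochberg method) and 1.52-fold lower after it (-0.61, SE 0.14, adjusted P = 0.0135). As labelled, the differences were -0.62 (adjusted P = 0.532) and -0.30 (adjusted P = 0.698), and without both moved libraries -0.96 (adjusted P = 0.00482) and -0.65 (adjusted P = 0.0501). Before PMA/I, Cd247 was at -0.81 (SE 0.21) in the placed groups, so its order with Cd3d is not resolved. It was past Cd3d there as labelled (-0.71) and without both moved libraries (-0.97).

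Cd3g, the gamma chain, shares its upstream region with Cd3d but moved less. It was at 328, 308 and 325 TPM in TB IL-2, at 440, 454 and 442 TPM in TB IL-2nil, at 288, 294 and 297 TPM in TB+ IL-2 and at 303, 337 and 352 TPM in TB+ IL-2nil. The groups with and without IL-2 did not overlap, but after PMA/I they were separated by little. Before PMA/I the difference was -0.47 with IL-2 (SE 0.12, adjusted P = 0.0107), and after it -0.17 (SE 0.12, 95% confidence interval -0.44 to 0.10, adjusted P = 0.347). The first was -0.28 as labelled (adjusted P = 0.696) and -0.48 without both moved libraries (adjusted P = 0.0411).

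Cd3e, the epsilon chain that pairs with both gamma and delta, passed the test in no comparison. It was at 354, 392 and 365 TPM in TB IL-2, 411, 479 and 456 TPM in TB IL-2nil, 335, 275 and 355 TPM in TB+ IL-2 and 339, 383 and 406 TPM in TB+ IL-2nil. Its log2 differences ran from -0.27 (95% confidence interval -0.60 to 0.05, adjusted P = 0.16) for IL-2 before PMA/I to -0.21 (-0.53 to 0.12, adjusted P = 0.298) for PMA/I with IL-2. These intervals leave room for a fall of about the size seen for Cd3g. After quantile normalization, Cd3e was lower with IL-2 before PMA/I (-0.65, adjusted P = 0.0152) and after PMA/I without IL-2 (-0.90, adjusted P = 0.00161), and the latter also passed without scaling (-0.81, adjusted P = 0.0304).

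After PMA/I without IL-2, Cd3d was lower by a log2 difference of -0.46 (SE 0.14, adjusted P = 0.0165) and Cd3g by -0.43 (SE 0.12, adjusted P = 0.0101). The median of all 12442 genes tested was -0.38 in this comparison, so relative to it these genes moved by -0.081 and -0.052, and the changes are not larger than those of the typical transcript on this scale. This depended on the scaling. Under median-ratio scaling the differences were -0.22 (adjusted P = 0.247) and -0.19 (adjusted P = 0.243), with a median of -0.19 over all genes. After quantile normalization they were -1.18 (adjusted P = 0.000514) and -1.11 (adjusted P = 0.000819), larger than the median of -0.14. Without scaling they were -1.01 (adjusted P = 0.0119) and -0.98 (adjusted P = 0.0129), with a median of -0.78. The Cd3d difference without IL-2 missed the test without TB IL-2nil replicate 2 (-0.38, adjusted P = 0.064) or without TB+ IL-2nil replicate 1 (-0.38, adjusted P = 0.0611). As labelled, the differences without IL-2 were -0.16 for Cd3d (adjusted P = 0.765) and -0.24 for Cd3g (adjusted P = 0.49), and without both moved libraries -0.50 (adjusted P = 0.0386) and -0.44 (adjusted P = 0.0376). With IL-2, the changes of Cd3d and Cd3g after PMA/I were -0.14 (adjusted P = 0.482) and -0.13 (adjusted P = 0.449).

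Cd247, the zeta chain, which carries most of the ITAMs of the complex, was not tested against the CD3 cluster. It was at 225, 201 and 195 TPM in TB IL-2, at 383, 427 and 293 TPM in TB IL-2nil, at 357, 348 and 239 TPM in TB+ IL-2 and at 376, 365 and 283 TPM in TB+ IL-2nil. TB IL-2 stood below the other groups without overlap, and those 3 groups overlapped one another, each with its lowest value in replicate 3. With IL-2, Cd247 was 1.75-fold lower before PMA/I (log2 difference -0.81, SE 0.21, adjusted P = 0.00987), while after PMA/I the difference was -0.13 (SE 0.21, 95% confidence interval -0.58 to 0.32, adjusted P = 0.698). It rose 1.5-fold after PMA/I with IL-2 (0.58, SE 0.21, adjusted P = 0.0474), a call that held in 8 of 24 alternatives with the libraries as placed, and without IL-2 the difference was -0.10 (adjusted P = 0.688). The difference between the PMA/I responses with and without IL-2 was 0.68 (SE 0.29, adjusted P = 0.191), and it passed the test with the replicate number as a block (SE 0.19, adjusted P = 0.0466). As labelled, the fall with IL-2 was -0.71 (adjusted P = 0.306) and the rise after PMA/I with IL-2 was 0.68 (adjusted P = 0.261). Without both moved libraries they were -0.97 (adjusted P = 0.00549) and 0.77 (adjusted P = 0.0132).

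Cd4 had the largest IL-2 difference of the 9 genes before PMA/I. It was at 145, 122 and 136 TPM in TB IL-2, at 306, 322 and 371 TPM in TB IL-2nil, at 130, 100 and 114 TPM in TB+ IL-2 and at 202, 163 and 252 TPM in TB+ IL-2nil. The 6 libraries with IL-2 were all below the 6 without it. With IL-2, Cd4 was 2.47-fold lower before PMA/I (log2 difference -1.30, SE 0.18, adjusted P = 0.000451) and 1.77-fold lower after it (-0.82, SE 0.18, adjusted P = 0.0103). Without both moved libraries the differences were -1.23 (adjusted P = 0.00455) and -0.82 (adjusted P = 0.0501), and as labelled -0.74 (adjusted P = 0.614) and -0.26 (adjusted P = 0.834). As cells were selected on CD4 protein before culture, these values describe transcripts in cells that were already CD4 positive. PMA/I lowered Cd4 without IL-2 (-0.71, SE 0.18, adjusted P = 0.00592), of which -0.33 remained relative to the median of all genes on this scale. The difference was -1.32 after quantile normalization (adjusted P = 0.000246), with a median of -0.14 over all genes. Under median-ratio scaling it was -0.47 (adjusted P = 0.0487), with a median of -0.19. With IL-2 the difference was -0.23 (95% confidence interval -0.63 to 0.18, adjusted P = 0.364). The fall without IL-2 was -0.15 as labelled (adjusted P = 0.851) and -0.64 without both moved libraries (adjusted P = 0.0359). A fall of transcript per cell and a smaller share of expressing cells cannot be told apart in these bulk samples, and the same holds for every gene described here.

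Lck, the kinase bound to CD4 that phosphorylates the CD3 tails, was at 299, 291 and 282 TPM in TB IL-2, at 362, 369 and 376 TPM in TB IL-2nil, at 348, 288 and 331 TPM in TB+ IL-2 and at 565, 383 and 420 TPM in TB+ IL-2nil. The libraries without IL-2 were higher than their counterparts with IL-2, without overlap. The test was not passed before PMA/I (log2 difference -0.34, SE 0.16, 95% confidence interval -0.70 to 0.011, adjusted P = 0.112) or after it (-0.48, SE 0.16, adjusted P = 0.0542). In the placed groups, the first passed in 2 of 24 alternatives, after quantile normalization (-0.67, adjusted P = 0.016) and in a fit of only the 2 groups compared (adjusted P = 0.0352). The second passed in 6 of 24. Among these were the replicate number as a block (SE 0.14, adjusted P = 0.0261), median-ratio scaling (-0.48, adjusted P = 0.0444) and the fit without TB+ IL-2nil replicate 2 (-0.60, adjusted P = 0.0318). The second difference was -0.42 as labelled (adjusted P = 0.334) and -0.50 without both moved libraries (adjusted P = 0.149). PMA/I gave 0.14 with IL-2 (adjusted P = 0.518) and 0.28 without it (adjusted P = 0.147). Without IL-2, the difference passed under median-ratio scaling (0.53, adjusted P = 0.0111). It was -0.27 without scaling (adjusted P = 0.406) and -0.37 after quantile normalization (adjusted P = 0.121).

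Zap70, the kinase that binds phosphorylated ITAMs, was one of the 2 members that changed more than 3-fold. It was at 116, 164 and 129 TPM in TB IL-2, at 131, 139 and 139 TPM in TB IL-2nil, at 400, 317 and 300 TPM in TB+ IL-2 and at 871, 559 and 527 TPM in TB+ IL-2nil. The groups without PMA/I lay together, those with PMA/I lay above them, and TB+ IL-2nil was above TB+ IL-2, each without overlap. After PMA/I, Zap70 rose 2.49-fold with IL-2 (log2 difference 1.31, SE 0.21, adjusted P = 0.000977) and 4.64-fold without it (2.21, SE 0.21, adjusted P = 1.06e-05). IL-2 made a difference of -0.016 before PMA/I (95% confidence interval -0.49 to 0.45, adjusted P = 0.968) and of -0.92 after it (SE 0.21, adjusted P = 0.0125). The response to PMA/I differed by -0.90 between cells with and without IL-2 (SE 0.30, unadjusted P = 0.0125), which did not pass the adjustment over all genes (adjusted P = 0.113). As labelled, the PMA/I response without IL-2 was 1.85 (adjusted P = 0.0414), the only member and comparison with an adjusted P under 0.05 in that placement, and the response with IL-2 was 0.95 (adjusted P = 0.369). Without both moved libraries the responses were 2.22 (adjusted P = 0.000166) and 1.4 (adjusted P = 0.00422).

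Lat, the membrane adaptor that ZAP-70 phosphorylates, rose less. It was at 357, 413 and 322 TPM in TB IL-2, at 481, 388 and 359 TPM in TB IL-2nil, at 714, 551 and 483 TPM in TB+ IL-2 and at 1050, 669 and 592 TPM in TB+ IL-2nil. Each library with PMA/I was above each library without it, and the groups with and without IL-2 overlapped before and after PMA/I. The rise was 1.59-fold with IL-2 (log2 difference 0.67, SE 0.23, adjusted P = 0.0464), a call that 12 of 24 alternatives kept in the placed groups, and 1.83-fold without it (0.87, SE 0.23, adjusted P = 0.00731). The second rise did not pass without scaling (0.32, adjusted P = 0.355) or after quantile normalization (0.14, adjusted P = 0.721). The IL-2 differences were -0.17 before PMA/I (95% confidence interval -0.68 to 0.35, adjusted P = 0.601) and -0.37 after it (-0.89 to 0.14, adjusted P = 0.28). As labelled, the 2 rises were 0.52 (adjusted P = 0.473) and 0.73 (adjusted P = 0.128), and without both moved libraries 0.79 (adjusted P = 0.0497) and 0.78 (adjusted P = 0.0335).

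Lcp2, which encodes SLP-76, the adaptor that joins LAT to PLC-gamma 1 and VAV1, showed the largest change of the 9 genes. It was at 102, 101 and 119 TPM in TB IL-2, at 135, 119 and 139 TPM in TB IL-2nil, at 536, 486 and 435 TPM in TB+ IL-2 and at 940, 704 and 741 TPM in TB+ IL-2nil. The groups with PMA/I were far above those without it, and TB+ IL-2nil was again the highest group. PMA/I raised Lcp2 4.48-fold with IL-2 (log2 difference 2.16, SE 0.16, adjusted P = 5.05e-06) and 6.0-fold without it (2.59, SE 0.16, adjusted P = 7.72e-07). After PMA/I, the level with IL-2 was 1.63-fold lower (-0.70, SE 0.16, adjusted P = 0.011), while before it the difference was -0.28 (SE 0.16, adjusted P = 0.182). The difference between the responses with and without IL-2 was -0.42 (95% confidence interval -0.92 to 0.075, adjusted P = 0.29). As labelled, the responses were 1.62 (adjusted P = 0.233) and 2.04 (adjusted P = 0.0596), and without both moved libraries 2.24 (adjusted P = 7.9e-05) and 2.63 (adjusted P = 2.1e-05).

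The lower levels of Zap70, Lcp2, Cd3d and Cd4 with IL-2 after PMA/I did not pass without scaling between libraries. TB+ IL-2nil replicate 1, the highest library for Zap70, Lat, Lcp2 and Lck, was multiplied by 1.72 to bring it to the common upper quartile, the largest factor of the 12. Without this step Zap70 was at 506, 453 and 496 TPM in TB+ IL-2nil and at 410, 296 and 315 TPM in TB+ IL-2, still without overlap. Lcp2 was then at 546, 570 and 698 TPM in TB+ IL-2nil and at 550, 454 and 457 TPM in TB+ IL-2, and the groups overlapped. Without scaling, the differences were -0.52 for Zap70 (adjusted P = 0.202), -0.31 for Lcp2 (adjusted P = 0.585), -0.21 for Cd3d (adjusted P = 0.769) and -0.43 for Cd4 (adjusted P = 0.499). Under median-ratio scaling all 4 passed, and after quantile normalization Zap70, Lcp2 and Cd4 passed and Cd3d was at -0.58 (adjusted P = 0.0649). Without both moved libraries the differences were -0.83 for Zap70 (adjusted P = 0.0745) and -0.62 for Lcp2 (adjusted P = 0.0695), and as labelled -1.28 (adjusted P = 0.17) and -1.25 (adjusted P = 0.283). Leaving out TB+ IL-2 replicate 3 alone gave -0.83 (adjusted P = 0.054) and -0.63 (adjusted P = 0.0511). The rises of Zap70 and Lcp2 after PMA/I passed the test in all 24 alternatives with the libraries as placed, with and without IL-2.

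Counted together, all 9 members were lower with IL-2 before PMA/I (Zap70 at -0.016), as were 7199 of all 12442 genes. Of the members, 4 of 9 passed the test (Cd4, Cd3d, Cd247 and Cd3g), against 22.3% of all genes tested that were lower with an adjusted P under 0.05. The median difference was -0.34 over the members and -0.13 over all genes. After PMA/I all 9 were again lower with IL-2, as were 6677 of all 12442 genes. Of the members, 4 passed there (Zap70, Cd4, Lcp2 and Cd3d), against 8.4% of all genes, with medians of -0.48 over the members and -0.042 over all genes. No member was over 3-fold in these comparisons, against 4.69% of all genes higher and 2.73% lower before PMA/I and 3.21% higher and 0.41% lower after it. The direction of the members that did not pass is not fixed, since on unscaled FPKM values 5 of 9 were higher with IL-2 before PMA/I and 5 of 9 after it. PMA/I with IL-2 raised 4 members (Lcp2, Zap70, Lat and Cd247), against 11.8% of all genes, and lowered none, and PMA/I without IL-2 raised 3 (Lcp2, Zap70 and Lat), against 20.1%, and lowered 3 (Cd4, Cd3d and Cd3g), against 41.1%. With upper-quartile scaling, the share that fell was thus no larger than the background. Over 3-fold, 1 member was called with IL-2 and 2 without it, against 3.94% and 7.78% of all genes that were higher, and none was lower, against 3.1% and 10.7%. The groups did not overlap in 6 members before PMA/I and in 6 after it, all lower with IL-2, against 30.4% and 18.3% of all genes that were lower without overlap (22.8% and 18.9% were higher). For PMA/I with IL-2, 4 members were higher and 1 lower without overlap, against 16.6% and 35.1%, and for PMA/I without IL-2, 4 were higher and 4 lower, against 21.8% and 42.3%. The test of whether the PMA/I response depended on IL-2 (the interaction) was passed by 0 of 9 members (limma), against 1.57% of all genes with a higher and 2.66% with a lower response in the presence of IL-2. At an unadjusted P under 0.05 there were 2 of 9 members (Zap70 and Cd247), against 2875 of all 12442 genes. Of the interactions over 3-fold, which held no member, 0.498% of all genes had a higher and 1.28% a lower response. As labelled, 0, 0, 0 and 1 of 9 members passed in the 4 comparisons, against 15, 27, 62 and 669 of all 12442 genes. At an unadjusted P under 0.05 there were then 1, 2, 2 and 3 members, against 1434, 2178, 1739 and 4017 of all genes. Without both moved libraries, 4, 0, 4 and 6 members passed, against 3994, 1200, 3819 and 6641 of all genes tested. At an unadjusted P under 0.05 there were 4, 5, 4 and 6 members in that fit, against 5541, 3338, 5302 and 7375 of all genes.

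**Figure D2:**
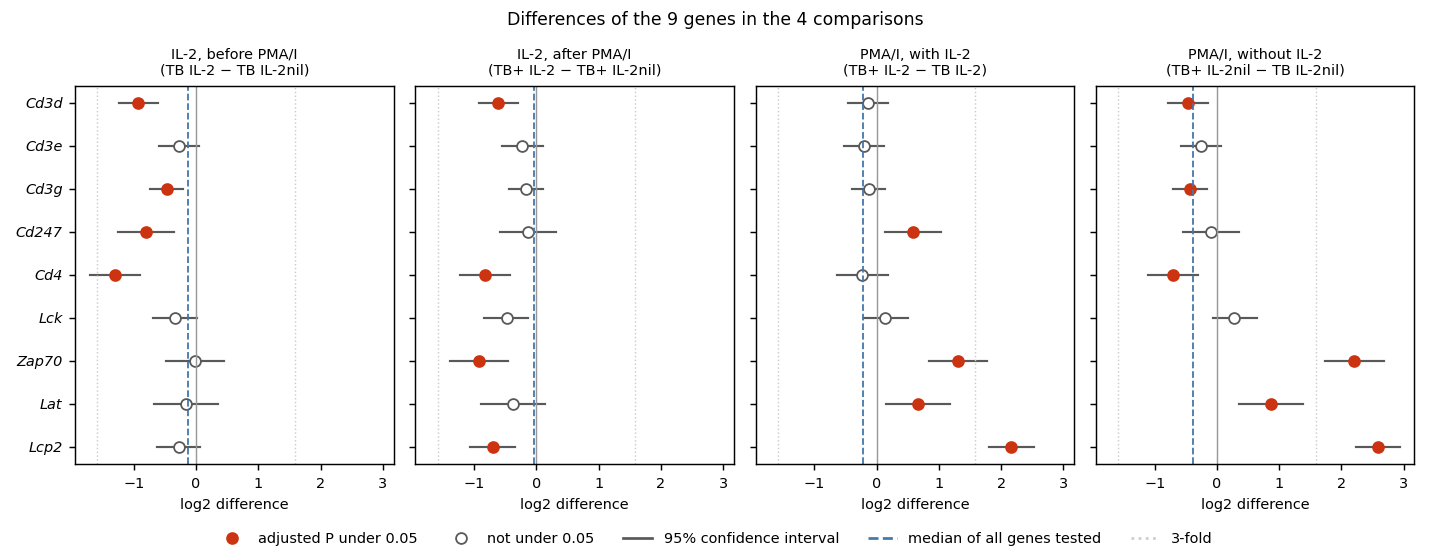
Log2 differences of the 9 genes (points) with 95% confidence intervals (lines) in the 4 comparisons, filled where the adjusted P was under 0.05; the dashed line is the median of all genes tested and the dotted lines mark 3-fold. Cd4 at -1.30 and Cd3d at -0.93 lie farthest to the left for IL-2 before PMA/I, Lcp2 at 2.16 and 2.59 farthest to the right for PMA/I, and Cd3d and Cd3g lie close to the median line for PMA/I without IL-2.

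Ratios within a library are free of the scaling between libraries, and they showed where the composition of the pathway shifted. The ratio of Cd3d to Cd3g was 0.767, 0.799 and 0.836 in TB IL-2 and 0.741, 0.806 and 0.836 in TB+ IL-2, but 1.04, 1.19 and 1.06 in TB IL-2nil and 1.04, 1.05 and 1.13 in TB+ IL-2nil. The 6 libraries with IL-2 all lay below 1 and the 6 without it all above, and PMA/I left the ratio where it was. As labelled, the 2 moved libraries, at 0.836 and 1.06, fell outside the range of their groups. Cd4 over Cd3e was likewise lower with IL-2, at means of 0.364 ± 0.0505 in TB IL-2 and 0.358 ± 0.0342 in TB+ IL-2 against 0.743 ± 0.0699 in TB IL-2nil and 0.547 ± 0.107 in TB+ IL-2nil (SD, n = 3).

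The ratios of the signalling genes followed PMA/I instead. Zap70 over Lck was 0.469 ± 0.0889 in TB IL-2 and 0.369 ± 0.00715 in TB IL-2nil, and 1.05 ± 0.13 in TB+ IL-2 and 1.42 ± 0.148 in TB+ IL-2nil (SD, n = 3). TB+ IL-2nil ran from 1.25 to 1.54 and TB+ IL-2 from 0.904 to 1.15, so the higher Zap70 without IL-2 after PMA/I was visible within libraries too. Lcp2 over Lat was 0.301 ± 0.0645 and 0.324 ± 0.0557 without PMA/I and 0.844 ± 0.082 and 1.07 ± 0.178 with it, in each case with IL-2 first (SD, n = 3), and here the ranges of TB+ IL-2, up to 0.9, and TB+ IL-2nil, from 0.898, touched. Cd247 over Cd3e was lowest in TB IL-2, from 0.512 to 0.636, and ran from 0.643 to 1.26 over the other libraries.

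**Figure D3:**
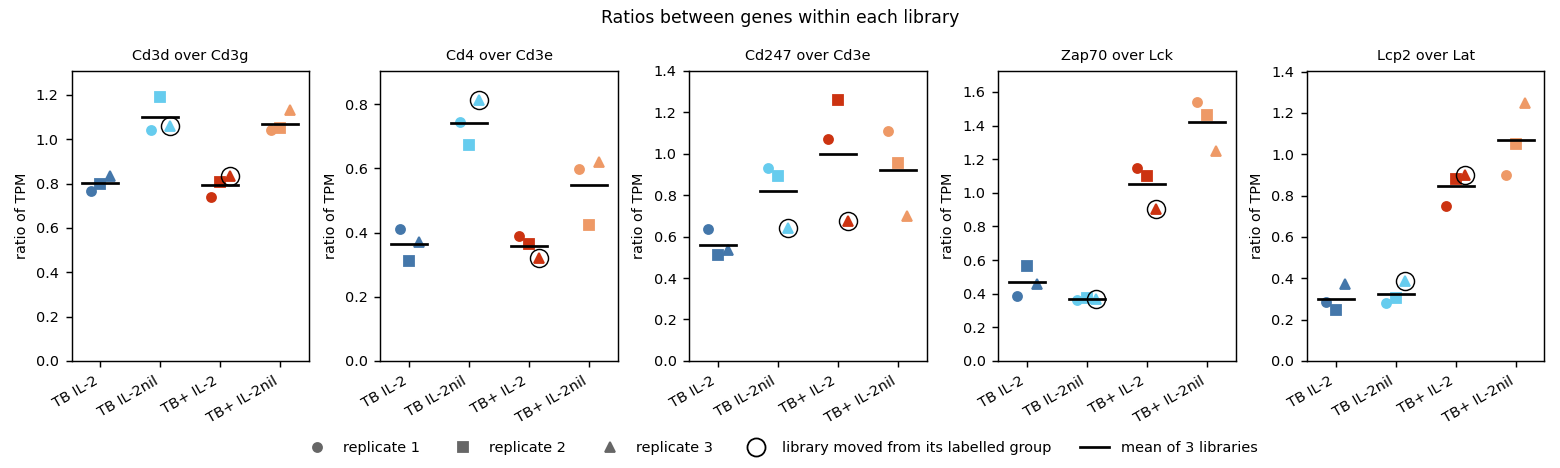
Ratios of TPM between pairs of genes within each library (linear axis from 0), by group, with the mean of 3 libraries as a bar and the moved libraries circled. Cd3d over Cd3g and Cd4 over Cd3e separate the groups by IL-2, while Zap70 over Lck and Lcp2 over Lat separate them by PMA/I.

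The other genes of the pathway were taken as 4 lists, of 9 kinases, 14 adaptors, 13 effectors below LAT and 17 brakes, and all 53 genes passed the filter on low values. Before PMA/I, 22 of 53 were lower with IL-2 and none was higher, against 22.3% of all genes lower and 17.3% higher, with a median of -0.63 over the lists and -0.13 over all genes. The lower genes included the kinases Fyn, Tec, Jak1, Prkcq and Stk4. After PMA/I, 9 of 53 were lower with IL-2, among them Jak1, Plcg1, Malt1, Cblb and Cd5, and none was higher, against 8.4% of all genes lower and 12.9% higher, with a median of -0.27 over the lists and -0.042 over all genes. With the replicate number as a block 19 of 53 passed, against 4186 of all 12442 genes. Of the 19, Map4k1, Skap1, Gab2, Shc1 and Was were higher, as Gab2 and Ptpn6 then were before PMA/I. Without both moved libraries 17 and 2 of 53 passed in these comparisons, against 3994 and 1200 of all genes tested. As labelled none of the 53 did (limma), against 15 and 27 of all genes. At an unadjusted P under 0.05 there were then 8 and 9 of 53, against 1434 and 2178 of all genes. Of the genes named here, Fyn before PMA/I (-0.61, adjusted P = 0.0625) and Plcg1, Malt1 and Cblb after it (-0.80, -0.82 and -0.70, adjusted P = 0.106, 0.117 and 0.158) did not pass without both moved libraries.

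After PMA/I, the pathway genes went both ways, as did all genes tested. With IL-2, 10 of 53 rose and 18 fell, and without it 10 rose and 29 fell. Of all genes, 11.8% and 20.1% were higher and 23.3% and 41.1% lower. The medians with and without IL-2 were -0.34 and -0.70 over the lists and -0.22 and -0.38 over all genes. Among the kinases none rose, although Fyn, at 0.44 with IL-2 (adjusted P = 0.12), passed with the replicate number as a block (adjusted P = 0.0437). Stk4, which encodes the Hippo pathway kinase MST1, fell with IL-2 (-1.31, adjusted P = 0.00797) and without it (-2.30, adjusted P = 9.18e-05). Among the adaptors, Grap2 (GADS), the partner that carries SLP-76 to LAT, fell, with differences of -2.37 with IL-2 (adjusted P = 0.000533) and -3.45 without it (adjusted P = 1.41e-05), opposite to Lcp2. Tespa1, an adaptor of thymocyte TCR signalling, rose by 1.95 (adjusted P = 0.000404) and 3.16 (adjusted P = 5.78e-06), and Sh3bp2 (3BP2) rose by 2.07 without IL-2 (adjusted P = 1.19e-05).

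Of the effectors, Malt1 and Bcl10, which act together in the activation of NF-kappa B, rose. Malt1 changed by 2.41 with IL-2 (adjusted P = 0.000115) and 2.58 without it (adjusted P = 2.07e-05), and Bcl10 by 1.53 (adjusted P = 0.000153) and 1.84 (adjusted P = 1.37e-05). Dgka, the kinase that removes diacylglycerol, had the largest IL-2 difference of the effectors before PMA/I, at -1.78 (adjusted P = 0.000514).

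The brakes held the largest rises of the 4 lists. Sla (SLAP), which promotes the turnover of the TCR, rose by 4.04 with IL-2 (adjusted P = 8.02e-06) and 3.6 without it (adjusted P = 6.66e-06), and Ptpn22, a phosphatase of LCK and ZAP-70, by 3.75 (adjusted P = 6.41e-06) and 2.63 (adjusted P = 2.34e-05). Other brakes fell. Sit1, a transmembrane adaptor that restrains TCR signalling, changed by -3.09 with IL-2 (adjusted P = 0.000237) and -3.42 without it (adjusted P = 3.49e-05). Ubash3a, which encodes STS-2, changed by -2.58 (adjusted P = 0.000359) and -3.14 (adjusted P = 2.93e-05), and Sla2, the closest relative of Sla, by -2.12 (adjusted P = 0.0029) and -2.96 (adjusted P = 0.000122). Before PMA/I, Ptpn22 was lower with IL-2, at -1.63 (adjusted P = 0.00159). In the interaction 0 of 53 genes passed (limma), against 526 of all 12442 genes. At an unadjusted P under 0.05 there were 5 of 53, against 2875 of all genes. As labelled, 2 and 3 of 53 passed for PMA/I with and without IL-2, against 62 and 669 of all genes. Without both moved libraries 27 and 38 did, against 3819 and 6641 of all genes tested.

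**Figure D4:**
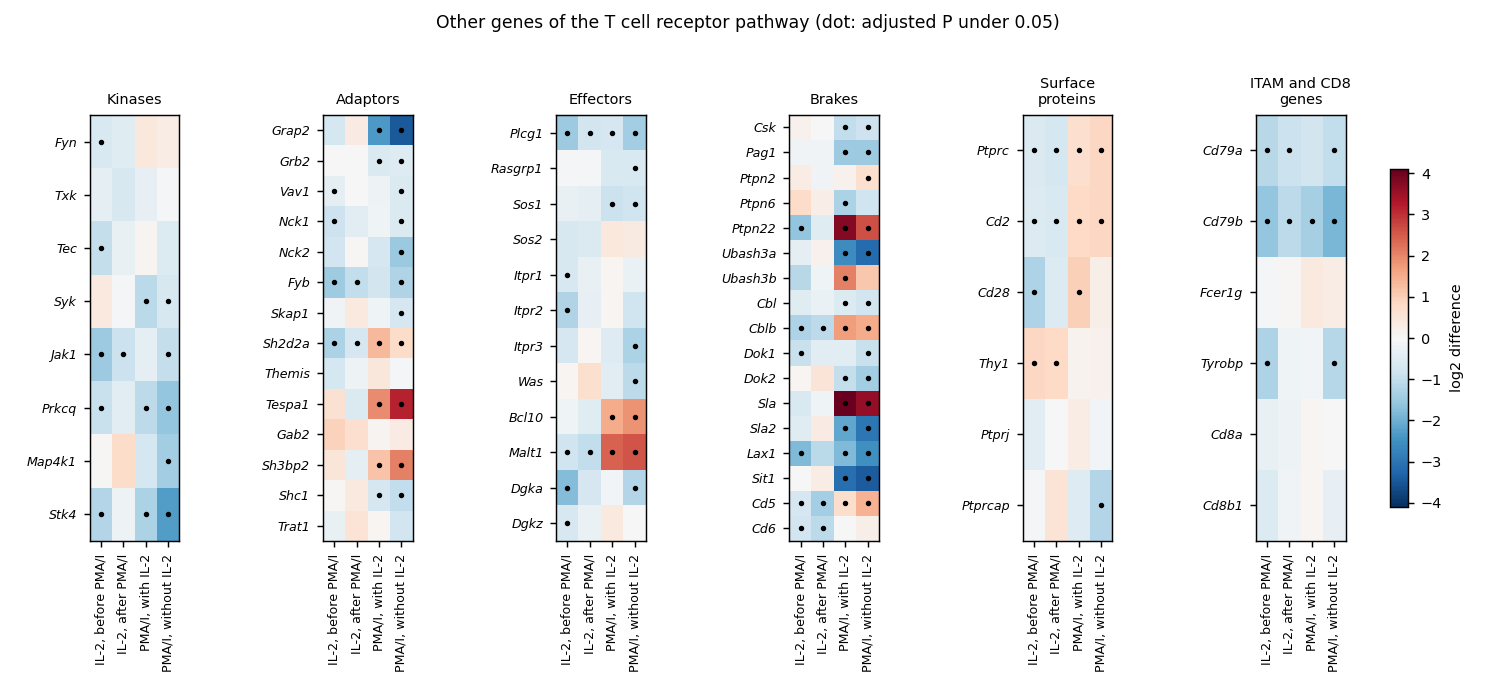
Log2 differences (colour) of the other pathway genes that are reported singly, in the 4 comparisons, by list, with a dot where the adjusted P was under 0.05. The IL-2 columns of the kinases, adaptors, effectors and brakes hold dots on blue cells only, and the PMA/I columns hold both colours, with Sla and Ptpn22 the reddest and Grap2, Sit1 and Ubash3a the bluest.

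Of 6 surface proteins that act beside the TCR, Ptprc (CD45), the phosphatase that keeps LCK active, and the adhesion receptor Cd2 were lower with IL-2 and higher after PMA/I in all 4 comparisons. Ptprc differed by -0.59 and -0.73 with IL-2 (adjusted P = 0.037 and 0.0258) and by 0.70 and 0.84 after PMA/I (adjusted P = 0.0201 and 0.00384), and Cd2 by -0.56, -0.61, 0.81 and 0.86 (adjusted P = 0.0294, 0.0357, 0.00553 and 0.00171). The costimulatory receptor Cd28 was lower with IL-2 before PMA/I (-1.28, adjusted P = 0.00218) and rose after PMA/I with IL-2 (0.99, adjusted P = 0.00928). Thy1 went the other way, being higher with IL-2 by 0.85 and 0.81 (adjusted P = 0.0103 and 0.0234), and Ptprcap, a partner of CD45, fell after PMA/I without IL-2 (-1.20, adjusted P = 0.000492). Ptprj passed in no comparison, with differences from -0.45 to 0.31. As labelled, of these only Cd2 and Ptprc after PMA/I without IL-2 passed (adjusted P = 0.043 and 0.0313). Without both moved libraries, the IL-2 difference of Ptprc before PMA/I and both IL-2 differences of Cd2 did not pass (adjusted P = 0.149, 0.0594 and 0.175), nor did that of Thy1 after PMA/I (0.71, adjusted P = 0.0724). The rises of Ptprc and Cd2 after PMA/I did not pass without scaling or after quantile normalization.

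Another list held 4 ITAM genes of other cells with the 2 CD8 genes. Cd79a and Cd79b, the ITAM chains of the B cell receptor, were lower with IL-2 before PMA/I by -1.13 (adjusted P = 0.00855) and -1.60 (adjusted P = 0.00271) and after it by -0.88 (adjusted P = 0.0456) and -1.07 (adjusted P = 0.0333), at levels of at most 9.04 and 15.1 TPM. After PMA/I their IL-2 differences did not pass without both moved libraries (adjusted P = 0.152 and 0.121). PMA/I without IL-2 gave -1.0 (adjusted P = 0.00934) and -1.88 (adjusted P = 0.000384), and with IL-2 -0.74 (adjusted P = 0.0602) and -1.36 (adjusted P = 0.00689). Tyrobp (DAP12) was lower with IL-2 before PMA/I (-1.25, adjusted P = 0.0109) and lower after PMA/I without IL-2 (-1.18, adjusted P = 0.00833). The first was -1.08 without both moved libraries (adjusted P = 0.0535). None of these calls of Cd79a, Cd79b and Tyrobp passed as labelled (limma, adjusted P from 0.397 to 0.966). Fcer1g, Cd8a and Cd8b1 passed in none of the 4 comparisons.

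The genes whose pattern over the 12 libraries lay closest to that of Zap70, by the root mean square difference of log2 values centred on their mean, were Ccdc85b (0.17), Nhlrc1 (0.178) and Agfg1 (0.192). Those closest to Lcp2 were Fbxw11 (0.173), Chd1 (0.176) and Zbtb21 (0.19). Nhlrc1 averaged only 0.457 TPM in TB IL-2, 0.221 TPM in TB IL-2nil, 2.43 TPM in TB+ IL-2 and 5.31 TPM in TB+ IL-2nil. At such levels log2(TPM + 1) understates changes, so its closeness to Zap70 depends on this scale. Agfg1 went from 37.5 TPM in TB IL-2 and 37.9 TPM in TB IL-2nil to 103 TPM in TB+ IL-2 and 182 TPM in TB+ IL-2nil on average, and Chd1 from 34 and 41.9 TPM to 142 and 254 TPM. Among the members, Cd3e and Cd3g were the closest pair (0.128) and Cd4 and Lcp2 the most distant (1.48). These values describe 12 libraries that share the scaling and the groups, and carry no test.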

How the data were processed

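The authors depleted ribosomal RNA, made directional paired-end libraries, used Trimmomatic 0.32 for trimming, HISAT2 2.1.0 for alignment to mm9 and StringTie 1.3.3 for quantification of RefSeq models (versions from the submitters' processing notes). The deposited values are FPKM, without counts and without normalization between libraries, although TPM is the unit that the methods name. As counts are not known, no counting interval is given, and relative depth was estimated from the ratios of the lowest FPKM values between libraries. Here FPKM values were rescaled so that each library summed to 1000000 (TPM), the filter on low values kept the 12442 genes that exceeded 1 TPM anywhere, and the 75th percentile was scaled to the mean of the 12. Log2(TPM + 1) values were fitted with limma 3.58.1 (R 4.3.3) over 4 groups, with 8 residual degrees of freedom, and P-values were adjusted over all genes (Benjamini-Hochberg). This scale understates changes of genes with few TPM. A gene was called at over 3-fold with an adjusted P under 0.05, and is said to rise or fall at the adjusted P alone. The fit was tested on simulated data. Other steps used Python 3.11.15 (numpy 2.4.6, pandas 2.3.3, matplotlib 3.10.9). Replicate numbers come from the labels, and in the placed groups all 18 pairs of libraries with the same number deviated together from their group means (Pearson correlations 0.101 to 0.531 across genes), so a fit with the number as a block was made beside each result. The members, the lists and the rule for naming genes were chosen with earlier results of these data known. Named were the 9 members, genes of the pathway lists called in a pairwise comparison (up to 5 per list by size), the 2 short lists, and the 3 genes closest in pattern to each member over 3-fold. Other names of list genes that passed the test were added after their values were seen. Some genes of the pathway lists enter the counts but are not reported here singly. Alternatives changed the placement, block, pseudocount, scaling, filter, variance model and libraries used.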

Additional observations from a re-analysis of the deposited data

How the results depend on the processing

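The pairwise differences of the members and of most other genes given with values were recomputed under 25 alternatives, all planned, and the interactions of the members under the same without the fit of 2 groups. Counts over the pathway lists were recomputed only for the 2 other placements, the replicate block and each library left out. Placement mattered most. With both moved libraries in their labelled groups, the members that passed in the 4 comparisons (IL-2 before and after PMA/I, PMA/I with and without IL-2) went from 4, 4, 4 and 6 to 0, 0, 0 and 1, those over 3-fold after PMA/I from 1 and 2 to 0 and 1, and the genes of the 4 pathway lists that passed from 22, 9, 28 and 39 to 0, 0, 2 and 3. Cd3g was then at 0.019 for IL-2 after PMA/I, and Cd3d, Cd3g and Cd4 at 0.16, 0.063 and 0.34 for PMA/I with IL-2. The groups of the placed fit rest on the Il2 level and on the study's own list, not on the labels. With both libraries left out, 0 members and 2 pathway genes passed for IL-2 after PMA/I, Cd247 was at 0.06 there, and the interactions of Cd3e and Lat were at -0.035 and 0.014.

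Scaling came next. For IL-2 before PMA/I, 2 members passed without scaling (Cd3d and Cd4, both lower), 2 on log2(FPKM + 1) (Cd4 lower and Zap70 higher), and 7 after quantile normalization. For IL-2 after PMA/I, 0 passed without scaling and on log2(FPKM + 1), and 1 in a fit of only the 2 groups compared. For PMA/I with IL-2, 2 passed without scaling, after quantile normalization, on log2(TPM + 0.1) and with no filter on low values. The signs that turned belong to differences that had not passed the test. For IL-2 before PMA/I these were Cd3e at 0.16, Lck at 0.094, Zap70 at 0.41, Lat at 0.27 and Lcp2 at 0.15 on log2(FPKM + 1) (the Zap70 value with an adjusted P of 0.0457), with Zap70 at 0.033 under median-ratio scaling. For IL-2 after PMA/I, Cd3e, Cd3g, Cd247 and Lat were at 0.17, 0.22, 0.27 and 0.021 without scaling and at 0.27, 0.32, 0.37 and 0.12 on log2(FPKM + 1), with Lck at 0.015. For PMA/I with IL-2, Cd3d and Cd3g were at 0.061 and 0.074 under median-ratio scaling, and Lck at -0.18 after quantile normalization and -0.0081 on log2(FPKM + 1). For PMA/I without IL-2, Cd247 was at 0.14 under median-ratio scaling, and Lck at -0.27 without scaling and -0.37 after quantile normalization. The interactions of Lck, Lat and Lcp2 were at 0.34, 0.27 and 0.054 without scaling, and those of Lck and Lat at 0.2 and 0.24 after quantile normalization. The cause was not tested. Scaling also moved the share of higher genes among all genes with an adjusted P under 0.05. It went from 43.7% to 78.2% on log2(FPKM + 1) for IL-2 before PMA/I, from 60.5% to 96.1% without scaling and 94.8% on log2(FPKM + 1) after it, from 33.6% to 50.8% under median-ratio scaling and 46.4% after quantile normalization for PMA/I with IL-2, and from 32.8% to 17.6%, 43.5% and 43.1% without scaling, after quantile normalization and under median-ratio scaling for PMA/I without IL-2.

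Leaving out 1 library at a time gave 4 to 4, 2 to 5, 2 to 4 and 5 to 6 members in the 4 comparisons and 0 to 0 in the interaction, 1 to 1 and 2 to 2 members over 3-fold after PMA/I, and 15 to 25, 4 to 9, 23 to 30, 36 to 40 and 0 to 2 pathway genes. Cd247 and Lat for PMA/I with IL-2 missed the test without 9 and 8 of the 12 libraries. Signs turned for Zap70 for IL-2 before PMA/I (-0.16 to 0.09), Cd247 for IL-2 after PMA/I (-0.26 to 0.058), Cd247 for PMA/I without IL-2 (-0.26 to 0.028), and the interactions of Cd3e (-0.027 to 0.16), Lck (-0.25 to 0.026) and Lat (-0.37 to 0.037).

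The replicate block raised the pathway genes that passed for IL-2 after PMA/I to 19 and those in the interaction to 1 (Dgka), and gave 1 member in the interaction (Cd247) and Lck for IL-2 after PMA/I. It changed no other call of a member and ended none of a pathway gene, and further pathway genes passed with it in each comparison. Over all genes tested, the calls in the 4 comparisons were 923, 451, 876 and 2296, and 12, 15, 44 and 255 as labelled, and the interaction passed in 526 genes, in 4 without both moved libraries, 1 without scaling, 1478 with the block and 84 to 1302 with 1 library left out. The number of reads is unknown, so the precision of a level rests on 3 libraries a group.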
